A study of Mus musculus with 56 samples.

Results

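The gastrocnemius, the large calf muscle, of mice that had breathed cigarette smoke for 2 weeks was compared with the same muscle of mice that had received sham air for 2 weeks. The members are the 12 arrays whose labels name these groups, 6 after smoke and 6 after sham air, out of 56 arrays in all, and each array holds the RNA of a different mouse. All mice were female C57BL/6 from Jackson Laboratory, and the labels name no engineered allele. The smoke mice breathed mainstream smoke at 4% through the nose for 2 hours a day on 5 days a week, and the sham mice breathed air on the same schedule. The labels call the sham groups FA without saying what the letters stand for, and ages are not given. The whole study covers 55 mice in 9 groups: smoke and sham air at 2, 12 and 24 weeks, smoke cessation in 2 arms, and untreated mice at week 0. RNA was taken from whole muscle, so a lower value can come from fewer cells of a type or from less RNA per cell, and these cannot be told apart. Whether the mice of a group shared a cage or an exposure run is not given. The p-values below therefore measure only the spread between single mice of a group. In limma, the linear model used, this spread is pooled over all 9 groups and 55 mice.

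Gastrocnemius of the mouse is built mostly of fast, glycolytic fibres and switches between glucose and fatty acids as fuel. The switch runs in part through pyruvate dehydrogenase, which the kinase PDK4 turns off when fatty acids are burned, and PDK4 belongs to the genes that fasting and fatty acids raise. Muscle wasting runs through ubiquitin ligases such as atrogin-1 (Fbxo32) and MuRF1 (Trim63). Smoke also carries aromatic hydrocarbons that bind the dioxin receptor AHR, whose best known target is Cyp1a1.

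Levels are given as log2 of the deposited intensity plus 16, so a level difference of 1 is a change of about 1 doubling for bright genes and understates the change of dim ones. Differences are smoke minus sham air on that scale, with standard errors (SE) from the limma model, whose spread is pooled over all 9 groups. Errors of group means are SDs over 6 mice, so an SE does not follow from the SDs beside it. Muscle markers were high in all 12 arrays: the mean of the 12 defining genes, among them creatine kinase and titin, lay between 13.42 and 13.49 in smoke mice and between 13.41 and 13.47 in sham mice. Sham air replicate 3 stood apart from the other 11 mice. Its Glycam1 intensity, a gene of lymph node vessels, was 9463, against 7.72 to 214 in the other 11, and its mean correlation with them over all genes was 0.940, where the lowest among the others was 0.985. Its mean over the 10 measured lymphocyte markers was 10.04, against 5.33 to 5.74 in smoke mice and 5.36 to 5.62 in the other 5 sham mice. Its adipocyte marker mean was 11.76, against 9.60 to 10.46 in smoke mice and 9.67 to 10.82 in the other sham mice. The main counts and the list medians that it moves most are given with and without it below. Of the 6 untreated mice, whose levels are given for context, the highest also had a Glycam1 level of 13.37.

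**Figure D1:**
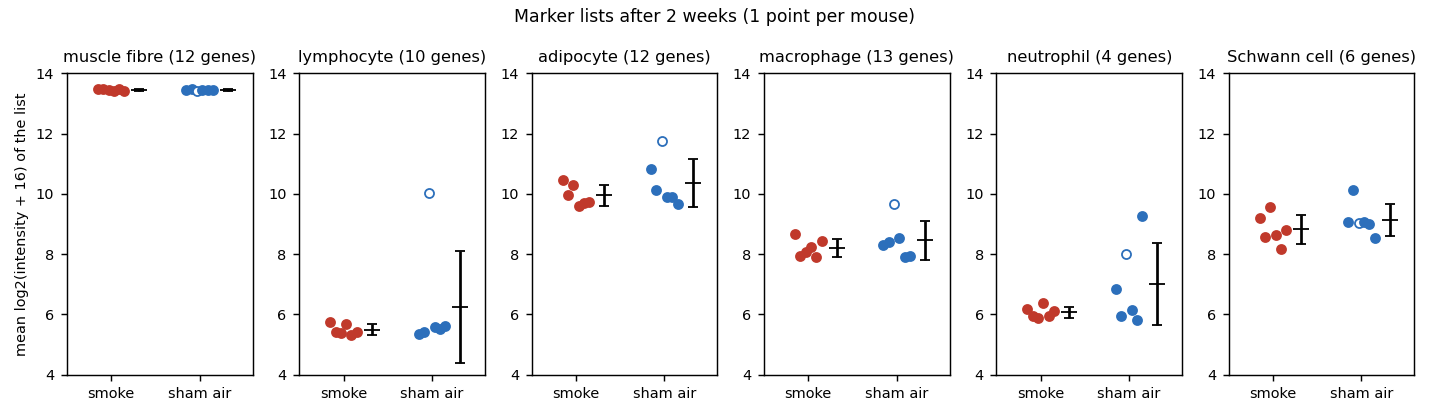
Mean level (log2 of intensity + 16) of 6 marker lists after 2 weeks, 1 point per mouse, with smoke on the left and sham air on the right of each panel; the open point is sham air replicate 3 and the bars are the mean and SD of 6 mice. The muscle fibre list lay between 13.41 and 13.49 in all 12 mice, and sham air replicate 3 was the highest mouse for lymphocyte (10.04), adipocyte (11.76) and macrophage (9.65) markers.

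After 2 weeks of smoke no gene passed the threshold of an adjusted p under 0.05 in limma, 0 of 12351 tested (0%), and the lowest adjusted p was 0.998. Where no gene differs, a share of 0.05 of genes is expected to have an unadjusted p under 0.05. In limma there were 255 such genes (2.06%), of which 116 were higher with smoke (0.939%) and 139 lower (1.13%). Without sham air replicate 3 there were 190 such genes (1.54%) and again 0 past the adjusted threshold. Without all 12 arrays of high Glycam1 in the series there were 619 (5.01%), and with the 2 groups fitted alone 839 (6.79%), with 0 past the adjusted threshold in each. All 255 kept their direction without sham air replicate 3, and 126 of them stayed under an unadjusted p of 0.05 in limma. The 255 were picked from these same mice, so the kept direction was nearly set in advance. The 6 smoke and 6 sham mice did not overlap for 47 genes (0.381%), 24 higher with smoke (0.194%) and 23 lower (0.186%). For a gene without any difference, a share of 0.0022 of the 924 ways to split 12 mice separates them fully. A group of genes that do not overlap is thus found also where smoke has no effect. Without sham air replicate 3 the count was 77 (0.623%), and when any other mouse was left out it lay between 60 and 190, the highest without sham air replicate 5. Differences beyond 0.5 on the log2 scale were mostly negative, with 268 genes lower with smoke and 13 higher, but without sham air replicate 3 there were 31 lower and 15 higher. Of all genes tested, 42.5% had a positive difference and the median difference was -0.02, or 44.5% and -0.01 without the mouse. The values that follow are therefore differences of group means that did not pass the test, and are to be read against these shares.

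The largest positive difference of all genes was that of Chac1, a glutathione-degrading enzyme that the ATF4 arm of the stress response turns on. Smoke mice had Chac1 levels of 10.17 at the lowest, 10.64 at the median and 10.94 at the highest, against 8.37, 9.50 and 10.45 in sham mice. In 4 of 6 smoke mice the level was above the highest sham mouse, and the difference was 1.15 ± 0.35 (SE), or 2.22-fold; it was 1.09 without sham air replicate 3. Untreated mice averaged 10.55 ± 0.61 (SD, n = 6), close to the smoke mean of 10.58 ± 0.32 and above the sham mean of 9.43 ± 0.78. The other genes of the unfolded protein response lay around 0. Of the 26 measured, 12 were above 0 with a median of -0.04, or 13 with a median of -0.00 without sham air replicate 3. Chac1 was the only member with an unadjusted p under 0.05 in limma, where 2.06% of all genes had one.

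Gadd45a, a stress gene that also responds to denervation and starvation in muscle, was higher in every smoke mouse than in every sham mouse. Its level was 11.16, 11.25 and 11.38 (lowest, median, highest) in smoke mice, against 10.70, 10.83 and 11.03 in sham mice. The difference was 0.42 ± 0.14, or 1.33-fold. When the 12 mice were fitted alone, Gadd45a had the lowest adjusted p of all genes in limma, 0.254, which is still above the threshold. Untreated mice averaged 11.18 ± 0.20, a mean between the lowest and the median smoke mouse.

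Among the ubiquitin ligases of muscle wasting Fbxo32 had the largest difference. It was 11.21, 11.61 and 11.84 in smoke mice, against 10.56, 11.09 and 11.57 in sham mice. In 4 of 6 smoke mice it was above the highest sham mouse, with a difference of 0.46 ± 0.22. The untreated mean of 12.13 ± 0.31 was higher than either group mean. Trim63 averaged 11.28 ± 0.09 in smoke mice and 11.23 ± 0.10 in sham mice, a difference of 0.05 ± 0.14, and the groups overlapped. Foxo1, a transcription factor that drives both ligases, differed by 0.02 ± 0.20. Of the 21 measured genes of ligases, FOXO factors and autophagy, 15 were above 0 with a median of 0.03. An unadjusted p under 0.05 in limma was found for 2 with a positive difference, and for none with a negative one. Over all genes these shares were 0.939% and 1.13%. Without sham air replicate 3, 14 of the 21 were above 0 with a median of 0.02. Of them 1 had an unadjusted p under 0.05 in limma, where 1.54% of all genes had one.

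Pdk4 and Ucp3, both tied to the burning of fatty acids, had higher means after smoke. Pdk4 was 12.50, 12.80 and 12.93 in smoke mice, against 11.74, 12.34 and 12.67 in sham mice. In 5 of 6 smoke mice it was above every sham mouse, and the difference was 0.49 ± 0.14, or 1.41-fold. Ucp3, a mitochondrial carrier of muscle that goes up with fatty acid supply, was 9.30, 9.54 and 9.92 in smoke mice, against 8.34, 8.86 and 9.31 in sham mice. Here too 5 of 6 smoke mice lay above every sham mouse, and the difference was 0.72 ± 0.27, or 1.64-fold. Both differences were nearly as large without sham air replicate 3, at 0.46 for Pdk4 and 0.66 for Ucp3. Untreated mice had 13.02 ± 0.32 for Pdk4 and 9.66 ± 0.54 for Ucp3, in each case above the sham mean and nearer to the smoke mean.

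The sham mice of low Pdk4 were also those of low Ucp3 and Chac1, a pattern noticed after the values were seen. Sham air replicates 1, 3 and 6 had Pdk4 levels of 12.10, 12.12 and 11.74, where the other 3 sham mice had 12.55 to 12.67. Ucp3 was 8.51, 8.58 and 8.34 in these 3 mice, against 9.13 to 9.31 in the other sham mice, and Chac1 was 8.85, 9.12 and 8.37, against 9.88 to 10.45. The mean of the 4 measured neutrophil markers was 5.87 to 6.38 in smoke mice, against 6.84, 7.99 and 9.26 in these 3 sham mice and 5.83 to 6.16 in the other 3. In untreated mice this mean ran from 5.86 to 11.02. The part of these cells in the differences was not tested.

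**Figure D2:**
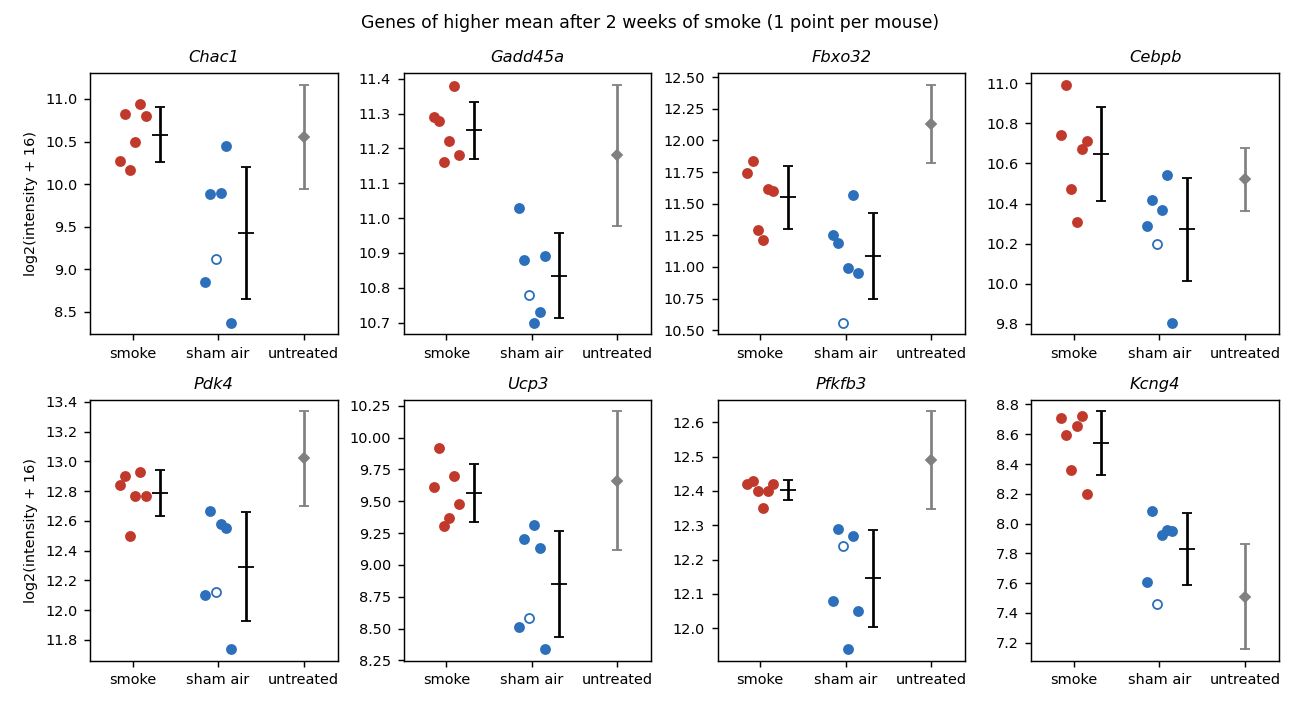
Levels (log2 of intensity + 16) of 8 genes that averaged higher after 2 weeks of smoke, 1 point per mouse, with smoke on the left, sham air next to it (open point: replicate 3) and untreated mice as mean and SD in grey; black bars are the mean and SD of 6 mice. Gadd45a, Pfkfb3 and Kcng4 did not overlap between smoke and sham air. The untreated mean was closer to the smoke mean than to the sham mean for genes that included Chac1, Ucp3, Gadd45a, Pfkfb3, Pdk4 and Fbxo32.

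The list of fatty acid oxidation enzymes and PPAR-linked regulators had 34 measured genes, of which 26 had a positive difference, with a median of 0.08, where 42.5% of all genes were positive. Without sham air replicate 3 it was 29 of 34, with the same median. Other lists had like shares with all 12 mice. Positive differences were found for 77.4% of proteasome subunits, 75.0% of slow fibre and 72.2% of fast fibre genes, against 76.5% of this list. The shares were lower for respiratory chain genes (57.1%) and muscle markers (58.3%). In the fatty acid oxidation list only Pdk4 and Ucp3 had an unadjusted p under 0.05 in limma, where 2.06% of all genes had one. The differences of the list's members ran from -0.52 to 0.72. The lowest, named after its value was seen, was that of Plin2, a coat protein of lipid droplets, at -0.52 ± 0.37 and at -0.21 without sham air replicate 3. Angptl4, a lipase inhibitor that PPAR factors turn on, overlapped between the groups, with 6.92 ± 0.31 in smoke mice and 6.79 ± 1.08 in sham mice, and its difference of 0.12 was 0.48 without that mouse. Cpt1a, a gate enzyme of mitochondrial fatty acid uptake, averaged 8.98 ± 0.25 in smoke mice and 9.02 ± 0.47 in sham mice, a difference of -0.05 and of 0.11 without that mouse; it is measured by a probe set of shared sequence. The coactivators PGC-1α (Ppargc1a, also of shared sequence) and PGC-1β (Ppargc1b) had differences of opposite sign. Ppargc1a differed by 0.09 ± 0.18. Ppargc1b was 8.57, 8.68 and 8.75 in smoke mice, against 8.77, 8.86 and 9.04 in sham mice. All 6 smoke mice lay below all sham mice for Ppargc1b, by 0.20 ± 0.14 at the means. Ehhadh, a peroxisomal enzyme of the same pathway, was lower by 0.20 ± 0.11, and by 0.10 without sham air replicate 3.

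Among the genes of glucose use, Pfkfb3, which makes the activator of phosphofructokinase, did not overlap between the groups. It was 12.35, 12.41 and 12.43 in smoke mice, against 11.94, 12.16 and 12.29 in sham mice, a difference of 0.26 ± 0.10. The spread was small in smoke mice, with an SD of 0.03 against 0.14 in sham mice, and untreated mice averaged 12.49 ± 0.14. Pfkm, the muscle phosphofructokinase, averaged 13.14 ± 0.05 in smoke mice and 13.04 ± 0.13 in sham mice, where replicate 2 was low. The Pfkm difference was 0.10 ± 0.05, and 0.04 without sham air replicate 2. Slc2a1, the basal glucose transporter GLUT1, was on the other side, at 11.03 ± 0.22 in smoke mice and 11.25 ± 0.19 in sham mice. Of the 29 measured genes of glucose uptake, glycogen and lactate, 20 were above 0 with a median of 0.04, or 19 with a median of 0.02 without sham air replicate 3. Pfkfb3 and Pfkm had an unadjusted p under 0.05 in limma, where 2.06% of all genes had one.

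Of the potassium channel subunits, Kcng4 was among the 10 genes of lowest p with a positive difference. It is a silent subunit that joins and modifies other voltage-gated channels, and it was 8.20, 8.63 and 8.72 in smoke mice, against 7.46, 7.94 and 8.09 in sham mice. The groups did not overlap, and the difference was 0.71 ± 0.20, or 1.63-fold, and 0.63 without sham air replicate 3. The untreated mean of 7.51 ± 0.35 was lower than both group means. Kcnf1, a silent subunit of the same class, was 6.67, 6.93 and 7.53 in smoke mice, against 6.03, 6.51 and 6.78 in sham mice. In 5 of 6 smoke mice it was above every sham mouse, with a difference of 0.59 ± 0.22. Kcnj12, an inward rectifier that sets the resting potential, had 8.88 ± 0.12 in smoke mice and 8.59 ± 0.27 in sham mice, with 4 of 6 smoke mice above every sham mouse. Over the family the differences lay around 0: 12 of 19 measured subunits were above 0, with a median of 0.03, and 9 of 19 without sham air replicate 3, with a median of 0.00.

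Cyp1a1, the monooxygenase that AHR turns on, was 7.12, 7.56 and 7.75 in smoke mice, against 6.59, 7.03 and 7.44 in sham mice. In 4 of 6 smoke mice it was above every sham mouse, and the difference was 0.47 ± 0.25, or 1.38-fold. The exact permutation p over the 924 ways to split 12 mice was 0.026, two-sided and for this gene alone; limma's adjusted p over all genes was above the threshold. Without sham air replicate 3 the difference was 0.55, and without smoke replicate 1, 2 or 6 the exact p was 0.054, 0.052 and 0.054. Untreated mice had a mean of 6.56 ± 0.38, below both group means.

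The 250 bases before the Cyp1a1 start are shown because smoke is known to act on this gene through AHR, which binds a short core motif. The sequence is that of RefSeq for build GRCm38.p6, chr9:57697363-57697612, plus strand. Capitals mark the letters GCGTG, which match the AHR core motif and begin 54 bases before the start, and a TATA box, TATAAA.
Cyp1a1: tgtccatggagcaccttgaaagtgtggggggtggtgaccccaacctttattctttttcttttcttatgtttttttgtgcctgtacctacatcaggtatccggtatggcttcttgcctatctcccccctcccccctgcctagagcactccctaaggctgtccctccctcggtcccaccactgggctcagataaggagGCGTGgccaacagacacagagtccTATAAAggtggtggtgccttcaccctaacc
The window of Pdk4, the only other gene shown to be searched singly, also holds 1 GCGTG, 71 bases before its start. Over all 32851 promoter windows of that length, 28.2% hold GCGTG and 12.4% hold TATAAA, searched on both strands, so a match by itself is common. It describes the letters and not a bound site. Binding of AHR to this match was not tested, and sequence further upstream was not searched.

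Over the AHR list, 3 of 7 measured genes were above 0 with a median of -0.08, or 2 with a median of -0.03 without sham air replicate 3. Cyp1b1, another monooxygenase under AHR, averaged 5.88 ± 0.39 in smoke mice and 6.59 ± 1.39 in sham mice, where sham air replicate 3 alone had 9.37 and the other 5 at most 6.25. The difference was -0.71 with that mouse and -0.16 without it. The receptor itself, Ahr, had 8.03 ± 0.33 in smoke mice and 8.23 ± 0.45 in sham mice, a difference of -0.20 ± 0.20 that was -0.03 without that mouse. Aldh1a3, a retinal dehydrogenase, differed by -0.47 ± 0.25, or by -0.30 without it, and its groups overlapped.

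Targets of NRF2, the factor that answers oxidants, lay around 0: of 18 measured, 7 were above it with a median of -0.01, or 10 with a median of 0.01 without sham air replicate 3. Nqo1, a quinone reductase that both AHR and NRF2 raise, averaged 10.26 ± 0.14 in smoke mice and 10.21 ± 0.14 in sham mice. Hmox1, heme oxygenase, averaged 7.18 ± 0.21 in smoke mice and 7.27 ± 0.39 in sham mice. Gsr, glutathione reductase, differed by 0.10 ± 0.06. Gclc, the catalytic subunit of the enzyme that starts glutathione synthesis, was on the low side: it had 7.57, 7.89 and 8.07 in smoke mice, against 7.88, 8.17 and 8.59 in sham mice. The groups overlapped, 2 of 6 smoke mice lay below every sham mouse, and the difference was -0.31 ± 0.11.

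Glucocorticoids raise several of the genes above, and the list of their targets was mixed. Of 20 measured, 11 were above 0 with a median of 0.03, and 16 with a median of 0.08 without sham air replicate 3. Fkbp5, a chaperone of the glucocorticoid receptor and a sensitive target of it, was 8.97, 9.49 and 9.87 in smoke mice, against 8.42, 9.0 and 9.49 in sham mice. In 3 of 6 smoke mice it was above every sham mouse, with a difference of 0.47 ± 0.23, and in 5 of 6 without sham air replicate 3. Cebpb, a transcription factor of stress and wasting, was 10.31, 10.69 and 10.99 in smoke mice, against 9.81, 10.33 and 10.54 in sham mice. The difference was 0.38 ± 0.14, with 4 of 6 smoke mice above every sham mouse. The metallothioneins, which bind metals, did not separate the groups: Mt1 differed by -0.05 ± 0.25, or by 0.11 without replicate 3, and Mt2 by 0.31 ± 0.25. Tsc22d3 (GILZ), another direct target, differed by 0.12 ± 0.09.

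Of the 20 measured clock genes 11 were above 0 at 2 weeks, with a median of 0.01, and of 0.02 without sham air replicate 3. Npas2, a partner of BMAL1, was 5.57, 6.26 and 6.50 in smoke mice, against 5.39, 5.77 and 6.00 in sham mice. In 5 of 6 smoke mice it was above every sham mouse, with a difference of 0.43 ± 0.20. Arntl, which encodes BMAL1, had 8.25 ± 0.14 in smoke mice and 8.02 ± 0.11 in sham mice, with 4 of 6 smoke mice above every sham mouse. Rora, an activator of Arntl, did not overlap, at 12.12 to 12.19 in smoke mice and 11.88 to 12.09 in sham mice. The clock repressors Nr1d1 and Per1 and the output gene Dbp had differences smaller than their SE. Nr1d1 differed by -0.06 ± 0.16, Per1 by -0.14 ± 0.22 and Dbp by -0.07 ± 0.14. The hour at which muscle was taken is not given for any mouse. Untreated mice stood further from both groups than the groups did from each other for Arntl, at 9.39 ± 0.49, and Npas2, at 7.24 ± 0.55.

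Genes that make fat and sterols were on the low side after smoke. Of the 16 measured sterol genes 13 were below 0, with a median of -0.16 and of -0.15 without sham air replicate 3. The list's mean level was 8.72 to 8.87 in smoke mice, against 8.84 to 9.29 in sham mice and 8.69 to 8.85 in untreated mice. Msmo1, a sterol demethylase, was 6.92, 7.06 and 7.37 in smoke mice, against 7.12, 7.60 and 8.29 in sham mice, a difference of -0.52 ± 0.18 and of -0.38 without replicate 3. Nsdhl, its partner in demethylation, had 7.78, 8.00 and 8.38 in smoke mice, against 8.16, 8.30 and 9.42 in sham mice. For Nsdhl 4 of 6 smoke mice lay below every sham mouse, and the difference of -0.45 ± 0.22 was -0.26 without replicate 3. Dhcr7, a reductase at the end of the pathway, did not overlap: it was 9.66, 9.71 and 9.82 in smoke mice, against 9.86, 9.87 and 10.03 in sham mice. Lss, which closes the sterol rings, had 7.04 ± 0.16 in smoke mice and 7.36 ± 0.36 in sham mice, a difference of -0.31 that was -0.18 without replicate 3.

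Of the 18 measured genes of fatty acid synthesis 17 were below 0, with a median of -0.35, but the median was -0.14 without sham air replicate 3, with 16 below 0. Scd2, a desaturase, had 11.25 ± 0.18 in smoke mice, none above 11.48, and 11.74 ± 0.36 in sham mice, none below 11.41. For Scd2 5 of 6 smoke mice lay below every sham mouse, and the difference of -0.48 ± 0.21 was -0.36 without replicate 3. Srebf1, the transcription factor of the pathway, was 9.89, 10.20 and 10.54 in smoke mice, against 10.28, 10.47 and 11.41 in sham mice. Its difference was -0.38 ± 0.20, and -0.22 without replicate 3. Elovl6, an elongase, differed by -1.15 ± 0.77 with that mouse and by -0.58 without it. Fasn, the fatty acid synthase, differed by -0.84 ± 0.66 and -0.42, and Acly, which supplies its acetyl-CoA and is measured by a probe set of shared sequence, by -0.46 ± 0.31 and -0.25. Scd1, the main desaturase of muscle and fat, differed by -0.13 ± 0.14, and by -0.06 without replicate 3.

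These genes are also expressed by fat cells, and the markers of fat cells ran the same way. Of 12 measured adipocyte markers 10 were below 0, with a median of -0.55, and 9 with a median of -0.13 without sham air replicate 3. Adipoq, the adipocyte hormone adiponectin, had 10.70 ± 0.57 in smoke mice and 11.24 ± 1.02 in sham mice, a difference of -0.54 ± 0.53 and of -0.20 without replicate 3. Retn (resistin) and Pparg, the factor that makes fat cells, differed by -0.81 ± 0.65 and -0.71 ± 0.54, and by -0.42 and -0.27 without it. The part of fat cells in the lipid genes was not tested.

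**Figure D3:**
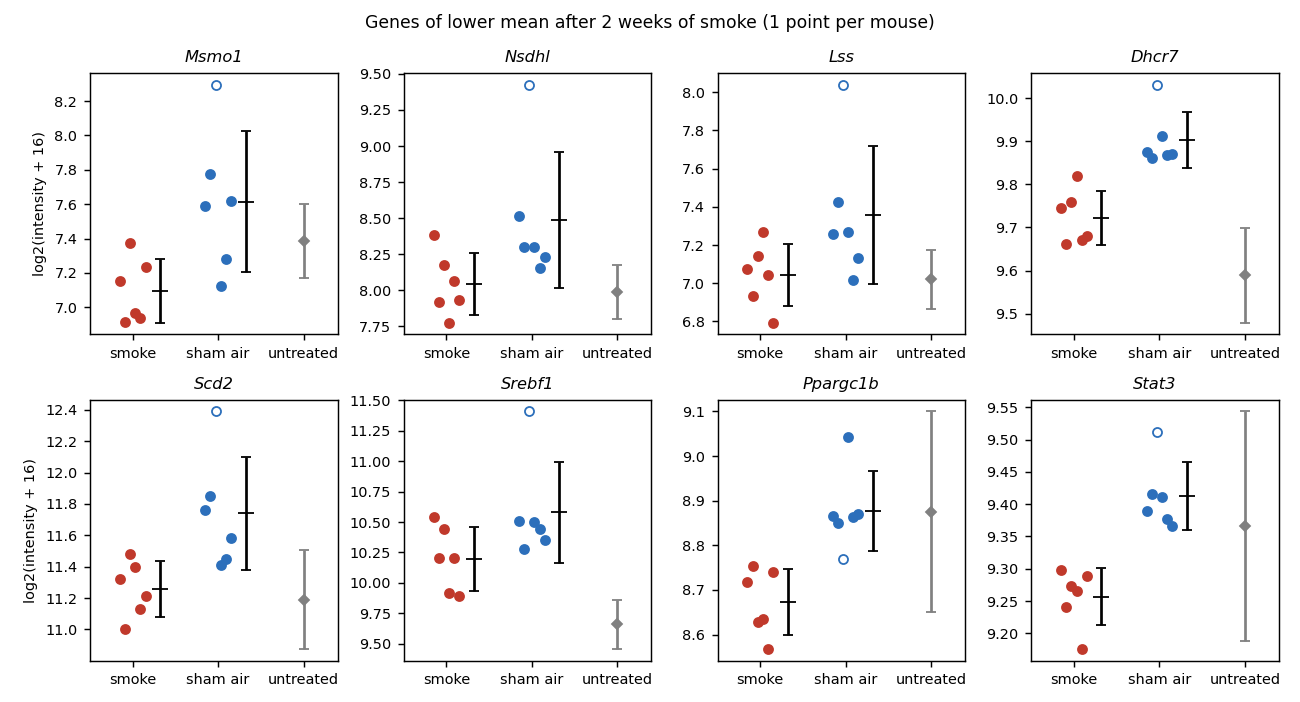
Levels (log2 of intensity + 16) of 8 genes that averaged lower after 2 weeks of smoke, 1 point per mouse, with smoke on the left, sham air next to it (open point: replicate 3) and untreated mice as mean and SD in grey; black bars are the mean and SD of 6 mice. Dhcr7, Ppargc1b and Stat3 did not overlap between smoke and sham air, and sham air replicate 3 was the highest mouse for Msmo1, Nsdhl, Lss, Dhcr7, Scd2, Srebf1 and Stat3.

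Signalling by cytokines was described by 17 measured genes, of which 13 were below 0, with a median of -0.15, and 10 with a median of -0.03 without sham air replicate 3. Cish, an inhibitor that growth hormone and other STAT5 signals raise, had the second largest positive difference of all genes, 1.07 ± 0.52, but spread widely. It was 7.10, 8.84 and 10.41 in smoke mice, against 6.78, 7.82 and 8.65 in sham mice, so 4 of 6 smoke mice lay above every sham mouse and the lowest did not. Stat3, the transcription factor of IL-6 signals, did not overlap: it had 9.18, 9.27 and 9.30 in smoke mice, against 9.37, 9.40 and 9.51 in sham mice. Its difference was -0.15 ± 0.11. Cxcl1, a chemokine that draws neutrophils, had 6.33 ± 0.14 in smoke mice and 6.74 ± 0.40 in sham mice.

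Lymphocyte and macrophage genes had negative medians that shrank without sham air replicate 3. All 10 measured lymphocyte markers were below 0, with a median of -0.77, but without sham air replicate 3 the median was -0.03 and 4 were above 0. The B cell gene Ms4a1 had 5.15 ± 0.33 in smoke mice and 5.90 ± 2.36 in sham mice, of which replicate 3 had 10.70 and the other 5 at most 5.18. The T cell gene Cd3e was 4.56 to 5.64 in smoke mice, against 9.48 in that sham mouse and at most 5.47 in the other 5. The 13 macrophage markers had a median of -0.19, or -0.02 without it, and the 23 interferon response genes -0.24, or -0.08. The interferon gene Oas2, an antiviral sensor of double-stranded RNA, had 5.66 ± 0.39 in smoke mice and 6.07 ± 0.31 in sham mice.

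Neutrophil markers were low in every smoke mouse and high in some sham mice. They also varied in untreated mice, where the mean of the 4 measured markers ran from 5.86 to 11.02. The calprotectin gene S100a9 was 5.41, 5.92 and 6.53 in smoke mice, against 5.50, 6.94 and 11.16 in sham mice. Sham air replicate 6 had 11.16, replicate 3 had 9.59 and replicate 1 had 7.68, and the other 3 sham mice overlapped with the smoke mice. Its partner S100a8 followed, with 6.41 to 7.80 in smoke mice and 6.62 to 11.08 in sham mice. The 6 measured genes of Schwann cells and nerve were all below 0, with a median of -0.36, and of -0.33 without replicate 3 and -0.16 without sham air replicate 2. Myelin genes were part of this: Mbp differed by -0.42 ± 0.34 and Pmp22 by -0.23 ± 0.15, the glial factor Sox10 by -0.51 ± 0.32 and S100b by -0.40 ± 0.29. The groups overlapped for each of these 4, and the mean of the list was 8.18 to 9.56 in smoke mice, against 10.14 in sham air replicate 2 and 8.53 to 9.07 in the other sham mice.

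The lists of fibre type and mitochondrial genes had medians of 0.01 to 0.09. The muscle actin Acta1 was 13.45 to 13.57 in smoke mice and 13.46 to 13.55 in sham mice, and the fast myosin Myh4 differed by 0.02 ± 0.04. The slow myosin Myh7, which varies with the share of slow fibres in a piece of muscle, had 12.33 ± 0.52 in smoke mice and 12.24 ± 0.23 in sham mice. Of the slow list 12 of 16 genes were above 0 with a median of 0.09, or 0.02 without sham air replicate 3, and the differences ran from -0.31 to 0.44. Of the fast list 13 of 18 were above 0 with a median of 0.02, and the differences ran from -0.03 to 0.34. The 70 respiratory chain genes had a median of 0.01 and ranged only from -0.12 to 0.11, and the 31 proteasome subunits had a median of 0.04, with 24 above 0. These bright genes lie in the upper range of the intensity scale.

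Genes of low oxygen, vessels and protein folding had list medians near 0. Of 22 hypoxia genes 10 were above 0 with a median of -0.01, or 12 with a median of 0.01 without sham air replicate 3. Adm, a vessel-widening peptide measured by a probe set of shared sequence, had 8.65, 8.74 and 9.0 in smoke mice, against 8.18, 8.54 and 8.67 in sham mice, and 5 of 6 smoke mice lay above every sham mouse. The hypoxia factor Hif1a differed by -0.16 ± 0.11, or by -0.09 without that mouse, and its target Vegfa by 0.10 ± 0.13. Of 21 endothelial markers 16 were below 0, with a median of -0.04, but 10 without sham air replicate 3, with a median of 0.01. Vwf, the clotting protein of endothelium, was 8.99, 9.43 and 9.85 in smoke mice, against 9.65, 9.75 and 10.05 in sham mice. For Vwf 4 of 6 smoke mice lay below every sham mouse, and the difference was -0.34 ± 0.15. Vegfc, a growth factor of lymph vessels measured by a probe set of shared sequence, differed by -0.28 ± 0.15. Among heat shock genes 6 of 19 were above 0 with a median of -0.04, or 2 with a median of -0.08 without sham air replicate 3. Dnaja1, a helper of HSP70, differed by -0.23 ± 0.10.

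**Figure D4:**
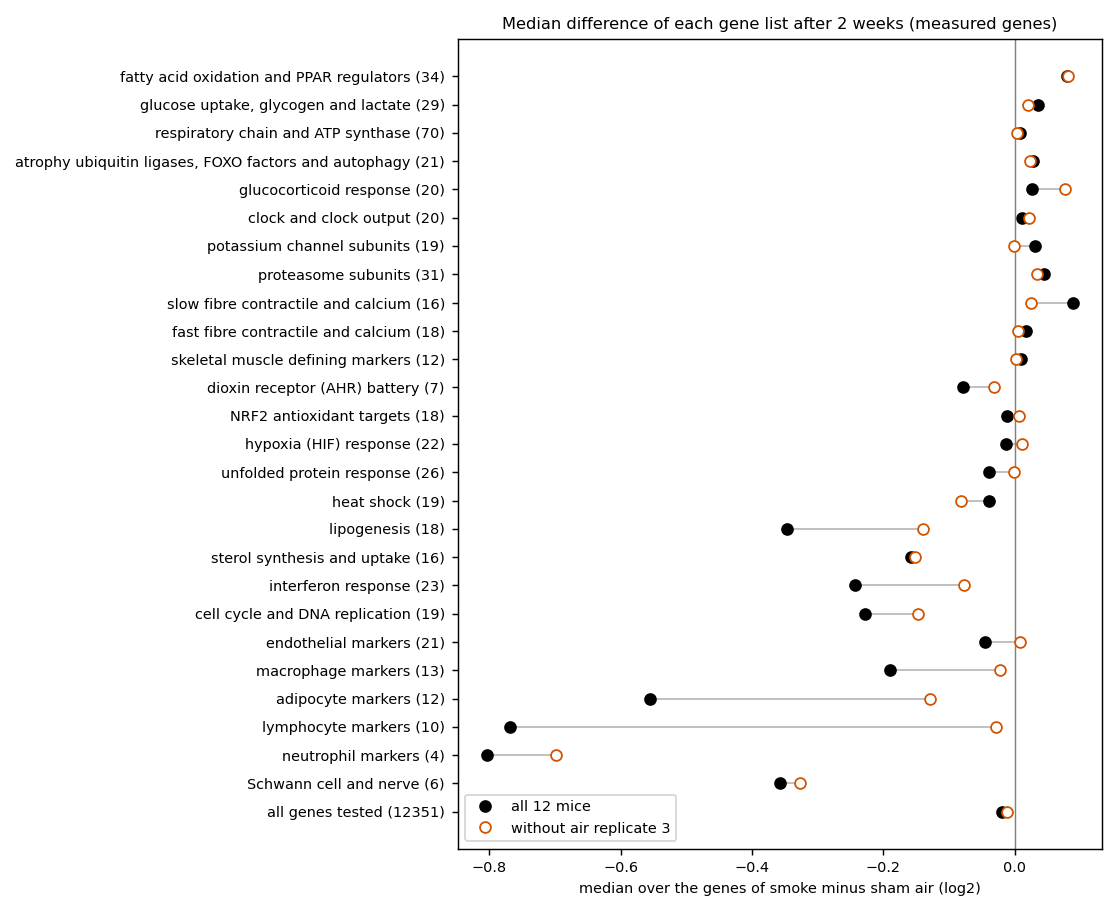
Median over the measured genes of each list of the difference smoke minus sham air after 2 weeks (log2 scale), with all 12 mice (filled) and without sham air replicate 3 (open); the number of measured genes stands after each name. The medians of lymphocyte, adipocyte and lipogenesis genes moved from -0.77 to -0.03, -0.55 to -0.13 and -0.35 to -0.14 without that mouse, while those of sterol (-0.16 and -0.15) and fatty acid oxidation genes (0.08 and 0.08) moved by at most 0.01.

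Genes outside the lists made up most of the lowest p-values. The 10 lowest with a positive difference included Chac1, Pdk4 and Kcng4, and also BE949265, a gene known only by a sequence tag, which was 7.50, 7.92 and 8.28 in smoke mice, against 6.68, 6.98 and 7.40 in sham mice. The groups did not overlap for BE949265, and the difference was 0.89 ± 0.29, or 1.85-fold. The other 6 were Spag1, which helps to assemble dynein arms, 4930553P18Rik, the complex III assembly factor Lyrm7, the glycosyltransferase B3gnt4, the trafficking protein Agfg1 and the tRNA-modifying enzyme Cdkal1, with differences of 0.17 to 0.44. Among the genes whose groups did not overlap, the zinc transporter Slc30a2 was higher by 0.48 ± 0.16 and Gm36839 by 0.40 ± 0.15.

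On the lower side, Fam227b had the lowest p of all genes. It was 6.45, 6.65 and 6.81 in smoke mice, against 6.78, 6.94 and 7.30 in sham mice, so that 5 of 6 smoke mice lay below every sham mouse, and the difference was -0.33 ± 0.08. Ckb, the brain form of creatine kinase, had 7.37 ± 0.16 in smoke mice and 7.68 ± 0.13 in sham mice, with 5 of 6 smoke mice below every sham mouse. Rbmx, an RNA-binding protein of splicing, did not overlap and differed by -0.23 ± 0.08. The phospholipid scramblase Plscr2, the lipid kinase Pi4k2a, the chloride channel Clcn2 and 2410022M11Rik differed by -0.18 to -0.48. Ift27 of ciliary transport, the phosphatase scaffold Ppp2r1a and the Golgi protein Cog8 differed by -0.11 to -0.43 and are measured by probe sets of shared sequence. The 5 largest negative differences among genes whose groups did not overlap were those of Jazf1 (-0.49), Zgrf1 (-0.41), Lrrc27 (-0.37), Mrgprf (-0.33) and Sycp3 (-0.31); without sham air replicate 3 those of Jazf1 and Sycp3 were -0.28 and -0.14.

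The effect of 2 weeks of smoke was then set against the effects of 12 and 24 weeks, each taken against sham air of its own length. No gene passed the test of the difference between the effects at 2 and 12 weeks in limma, 0 of 12351 (0%), with 251 at an unadjusted p under 0.05 (2.03%). Between 2 and 24 weeks 4 genes differed (0.0324%), each at an adjusted p of 0.04996 in limma, which lies just under the threshold, and 2296 had an unadjusted p under 0.05 (18.6%). Kcnf1 was higher by 0.59 at 2 weeks, but at 24 weeks it averaged 5.72 ± 0.52 in smoke mice and 6.60 ± 0.30 in sham mice, and the effects differed by 1.48 ± 0.31 (SE). The clock repressor Nr1d1 differed by -0.06 at 2 weeks, and at 24 weeks it had 8.77 ± 0.58 in smoke mice and 9.90 ± 0.20 in sham mice, and the effects differed by 1.07 ± 0.22. For 4930553P18Rik the effect was 0.44 at 2 weeks and -0.44 at 24 weeks, and for Fam227b it was -0.33 and 0.25. The count was 0 without sham air replicate 3, lay between 0 and 11 when any of the 12 mice was left out, with 11 without sham air replicate 5, and was 18 without all 12 arrays of high Glycam1 in the series.

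Of the 255 genes at an unadjusted p under 0.05 at 2 weeks, 46.7% had the same sign at 12 weeks and 32.5% at 24 weeks, where for all genes these shares were 40.6% and 35.3%. The lymphocyte median was -0.77 at 2 weeks (-0.03 without sham air replicate 3), 1.225 at 12 weeks and 1.73 at 24 weeks. For lymph node genes the median was -0.23 (0.22 without that mouse), 0.85 and 1.34. The part of lymph node tissue in these shares and in the counts above was not tested. Pdk4 and Ucp3 were positive at each time, with 0.28 ± 0.14 and 0.31 ± 0.26 at 12 weeks and 0.27 ± 0.14 and 0.37 ± 0.27 at 24 weeks. The median of the whole fatty acid oxidation list was 0.08 at 2 weeks, but -0.03 at 12 weeks and -0.19 at 24 weeks. Kcng4 and Chac1 lay nearer to 0 at the later times: Kcng4 had differences of 0.01 ± 0.19 and -0.06 ± 0.20 at 12 and 24 weeks, and Chac1 0.26 ± 0.34 and -0.06 ± 0.35. Gadd45a had 0.06 ± 0.14 at 12 weeks and -0.46 ± 0.14 at 24 weeks. The sterol median was -0.02 at 12 weeks and -0.05 at 24 weeks. Cyp1a1 had differences of 0.47 ± 0.25 at 2 weeks, 1.47 ± 0.24 at 12 weeks and 0.37 ± 0.25 at 24 weeks, and the effect at 2 weeks minus that at 12 weeks, -1.004 ± 0.344, had an adjusted p of 0.942 in limma.

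**Figure D5:**
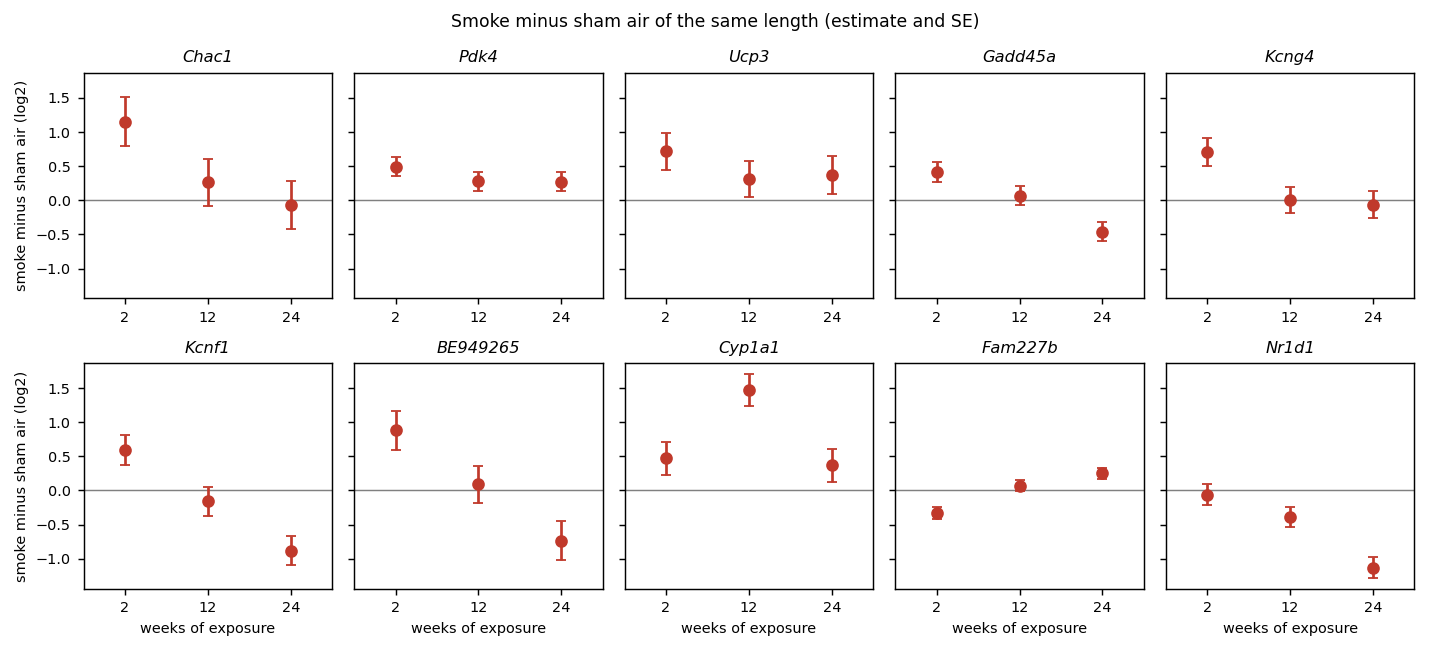
Difference smoke minus sham air of the same length (log2 scale, estimate and SE from limma) at 2, 12 and 24 weeks for 10 genes. Chac1 and Kcng4 were highest at 2 weeks (1.15 and 0.71), Cyp1a1 at 12 weeks (1.47), and Kcnf1 and BE949265 were positive at 2 weeks and negative at 24 weeks.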

How the data were processed

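Each array gives the authors' deposited intensity per probe set on a linear scale, for gastrocnemius RNA amplified and biotin-labelled in the same way for all samples, per the labels' protocols. How probes were summarised or normalised is not stated in the labels, and so not given in the sources used here; medians of the 12 arrays lay between 63.0 and 72.8, and precision is limited by how few arrays there are. Values were floored at -15, 16 was added, and log2 was taken. Of 45037 probe sets 34945 had 1 gene symbol in the platform annotation; each of 18193 genes was read from its probe set with the highest mean, and 12351 of them lay above the 40th percentile, a log2 level of 5.71. The 932 probe sets with several symbols and the 9160 with none were left out, so some known muscle genes were not analysed here. Of the genes kept, 565 have probe sets whose suffix _x_at marks shared sequence, which is said where such a gene is named. Probe sets with the suffix _s_at, which also marks shared sequence, were not counted or flagged.

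All tests came from 1 limma model of 9 groups and 55 mice, with 46 residual degrees of freedom and Benjamini-Hochberg adjustment over all genes. Cyp1a1 was also tested by exact permutation. Genes named were the 10 of lowest p each way, the 5 of largest difference each way whose groups did not overlap, up to 4 members of lowest p and up to 2 of defining role in each list described, and 34 genes set by name. The members, gene lists and rules were chosen with earlier results of these data known. Alternatives were other pseudocounts (1 and 64), other filters, quantile normalization, the mean of probe sets, robust moderation, array weights, the title number as covariate, the main identifier run, the 2 groups alone, arrays of high Glycam1 (intensity over 2000) left out, and each mouse left out. Every probe set was tested as an alternative chosen after seeing the data. On data simulated for this comparison with 12351 genes, the model recovered 90 of 100 genes shifted by a log2 value of 1 and 57 of 100 shifted by 0.5, with 10 false calls. The simulated noise was normal and independent between genes, with no array standing apart, and all shifted genes were in the same data set. These counts therefore need not hold for the real arrays. R 4.3.3, limma 3.58.1, Python 3.11.15 and matplotlib 3.10.9 were used.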

Additional observations from a re-analysis of the deposited data

Results flagged for a closer look

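Single mice stood apart from the other 5 of their group, by Dixon's ratio of gap to range, in 24 of 208 sets of 6 values examined, where chance flags about 1 in 20 groups. Most were sham air replicate 3. It was the highest sham mouse for Glycam1 (13.21), Ms4a1 (10.70) and Cd3e (9.48), and for the means of the lymphocyte markers (10.04), lymph node markers (10.12) and macrophage markers (9.65). It was also the highest for Cyp1b1 (9.37), Ehhadh (8.58), Plin2 (11.75), Srebf1 (11.41), Elovl6 (12.33), Nsdhl (9.42), Dhcr7 (10.03), Foxo1 (10.22), Stat3 (9.51), Hif1a (11.58), Jazf1 (8.15) and Sycp3 (10.65).

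Other mice stood apart for single genes. Sham air replicate 4 was the highest of its group for Ppargc1b (9.04) and Spag1 (7.77), and sham air replicate 2 was the lowest for Pfkm (12.79) and the highest for the mean of the Schwann cell markers (10.14). In the smoke group replicate 4 was the highest for Adm (9.0) and replicate 3 the lowest for Lrrc27 (6.21). The smoke effect at 2 weeks minus that at 24 weeks was past the threshold in limma for 4930553P18Rik (0.88), Fam227b (-0.58), Kcnf1 (1.48) and Nr1d1 (1.07).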

How the results depend on the processing

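No alternative of the planned settings gave a gene past the threshold at 2 weeks, and testing every probe set, chosen after seeing the data, gave 1. The number of genes whose effect differed between 2 and 24 weeks was not stable. It was 4 as reported and 4 with robust moderation, 5 with a pseudocount of 64 and 1 with quantile normalization. It was 0 with the filter at the 60th percentile, no filter, a pseudocount of 1, the mean of probe sets, the main identifier run, the title number as covariate, or without the 2-week array of high Glycam1. It was 18 without every array of high Glycam1 and 736 with array weights, and leaving out each mouse gave 0 to 11. The cause was not tested. The number of genes whose groups did not overlap, 47, was 77 without the array of high Glycam1 and 102 with the main identifier run, which leaves out smoke replicate 4, and 60 to 190 when each mouse was left out; fewer mice make a separation easier. Cyp1a1 kept its direction, with differences of 0.38 to 0.55 when each mouse was left out and exact permutation p-values of 0.013 to 0.054, two-sided. The unadjusted count of 255 genes was 619 without every array of high Glycam1 and 839 with the 2 groups fitted alone, with median SEs of 0.09 in each, against 0.12 as reported.

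Of 97 genes named, 9 had a difference that turned direction somewhere, and none of these passed the test. Without the array of high Glycam1, in each fit that left it out, Glycam1 was 0.47, Ms4a1 0.21, Mt1 0.11, Cpt1a 0.11 and Hmox1 0.003042. With array weights Mt1 was 0.0782, Cpt1a 0.0359 and Nqo1 -0.0004649. Cpt1a was also 0.0385 with the mean of probe sets and 0.0256 with the title number as covariate, and Foxo1 was -0.00508 with the mean of probe sets. Leaving out each mouse gave Glycam1 -1.23 to 0.47, Ms4a1 -0.97 to 0.21, Mt1 -0.16 to 0.11, Cpt1a -0.14 to 0.11, Hmox1 -0.18 to 0.003042, Foxo1 -0.03755 to 0.14, Angptl4 -0.19 to 0.48 and Myh7 -0.008395 to 0.25. No paired analysis was possible because the sample titles carry animal codes and no replicate numbers shared between the groups.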

Other observations

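When every probe set above the filter was tested, 27022 in all, 1 passed at 2 weeks. It measures Gna13, a G protein subunit that links receptors to the cytoskeleton, and was 7.54, 7.69 and 7.93 (lowest, median, highest) in smoke mice, against 6.71, 7.02 and 7.58 in sham mice. In 3 of 6 smoke mice the level was above every sham mouse. The difference was 0.65 ± 0.12 (SE), with an adjusted p of 0.039 in limma. The other 6 probe sets of Gna13 had differences of 0.02 to 0.43, and none passed, at adjusted p-values of 0.994 and above in limma. The brightest of them, at 11.45 ± 0.10 in smoke mice and 11.43 ± 0.12 in sham mice, stands for the gene in the fit of 12351 genes and differed by 0.02. For the probe set that passed, the difference was 0.34 at 12 weeks and -0.11 at 24 weeks.

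Some lists not described above had medians away from 0. Of 8 measured polyamine genes 6 were below 0, with a median of -0.11, and of 19 cell cycle genes 15, with a median of -0.23, or -0.15 without sham air replicate 3. Of 20 immediate early genes 14 were below 0, with a median of -0.12. The 18 fibroblast and collagen genes had a median of -0.10, or -0.06 without sham air replicate 3. The 11 tendon genes were all above 0 with a median of 0.08, but 7 with a median of 0.03 without that mouse. None of these lists had a member with an unadjusted p under 0.05 in limma, and the share of all genes past it was 2.06%.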
